A study of Mus musculus with 6 samples.

Results

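The receptors of the TGF-beta superfamily were examined in neural stem/progenitor cells overexpressing Bmi1. The set holds 10 genes of this family but not all of its receptors, and it was chosen with earlier results of these data known. Its members are Tgfbr1, Tgfbr2, Tgfbr3, Acvr1, Acvr1b, Acvr2a, Acvr2b, Bmpr1a, Bmpr1b and Bmpr2. Each of the 10 had exactly 1 probe set that names it alone, out of 35557 probe sets on the array and 19938 genes with a probe set of their own. Cells were taken from the wall of the lateral ventricles of outbred CD1 mice aged 4 to 6 weeks and were grown as free-floating neurospheres. Control cells carried the empty retroviral vector, which expresses eGFP only, and test cells carried the same vector with Bmi1 before eGFP. The labels name the untagged construct, pCMMP-Bmi1, whereas the text of the study names FLAG-tagged Bmi1 for the arrays, and which of them was used is not settled here. Both groups were sorted on eGFP, so each sample was a pool of transduced cells, and both were cultured at clonal density (2000 cells per well). There were 3 arrays per group, and the series' design text calls the cultures of a group independent without naming separate mice, so that the p-values measure only how far these samples spread, which may be technical. For all 6 arrays the source field contradicts the title, transduction and genotype fields as to the group, and the last 3 were followed.

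Ligands of this superfamily bind complexes of 2 kinds of transmembrane serine/threonine kinase. A type II receptor, active by itself, phosphorylates a type I receptor, which then phosphorylates Smad proteins that enter the nucleus. TGF-beta signals through Tgfbr2 and Tgfbr1, and activins signal through Acvr2a or Acvr2b with Acvr1b, both chiefly to Smad2 and Smad3. Bone morphogenetic proteins (BMPs) use Bmpr2 or the activin type II receptors with Bmpr1a, Bmpr1b or Acvr1, and signal to Smad1, Smad5 and Smad9. Tgfbr3, or betaglycan, has no kinase and presents ligand to the others. In the ventricle wall, BMPs are known to favour glial fate and quiescence and TGF-beta to restrain the division of progenitors.

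Promoter sequences are shown for the 3 receptor genes that fell, since BMI-1 belongs to a Polycomb complex that is recruited to CpG-rich promoters, and for Bmpr1a as a receptor gene that did not pass the test. Each is the stretch of 250 bases before the annotated start, written 5′ to 3′ on the strand of the gene, from RefSeq (GRCm38.p6), which gives a promoter for 9 of the 10 genes (all but Tgfbr3). The position of Tgfbr1 is chr4:47352972-47353221 (plus strand), that of Tgfbr2 chr9:116175364-116175613 (minus strand), that of Bmpr2 chr1:59764029-59764278 (plus strand) and that of Bmpr1a chr14:34502547-34502796 (minus strand). Capitals mark the GC box GGGCGG or its complement CCGCCC, the core of sites for Sp1-type factors.
Tgfbr1: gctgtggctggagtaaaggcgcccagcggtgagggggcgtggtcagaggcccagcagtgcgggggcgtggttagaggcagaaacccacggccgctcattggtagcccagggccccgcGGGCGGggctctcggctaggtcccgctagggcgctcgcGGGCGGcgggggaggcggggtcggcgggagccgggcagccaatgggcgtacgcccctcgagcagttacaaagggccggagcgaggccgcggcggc
Tgfbr2: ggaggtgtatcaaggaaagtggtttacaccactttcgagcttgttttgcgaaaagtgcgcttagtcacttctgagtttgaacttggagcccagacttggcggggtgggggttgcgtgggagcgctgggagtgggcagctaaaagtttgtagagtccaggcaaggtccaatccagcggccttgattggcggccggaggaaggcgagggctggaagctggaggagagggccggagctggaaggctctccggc
Bmpr2: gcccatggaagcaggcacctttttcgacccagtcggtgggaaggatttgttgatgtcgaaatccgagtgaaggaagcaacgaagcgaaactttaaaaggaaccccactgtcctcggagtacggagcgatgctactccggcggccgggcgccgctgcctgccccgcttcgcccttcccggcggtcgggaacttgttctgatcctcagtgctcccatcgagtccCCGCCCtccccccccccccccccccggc
Bmpr1a: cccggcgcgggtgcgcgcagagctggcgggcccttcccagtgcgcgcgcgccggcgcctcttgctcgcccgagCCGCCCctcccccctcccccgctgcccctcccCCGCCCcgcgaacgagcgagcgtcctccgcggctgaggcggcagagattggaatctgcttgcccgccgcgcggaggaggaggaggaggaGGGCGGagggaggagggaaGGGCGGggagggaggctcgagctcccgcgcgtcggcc
The Tgfbr1 promoter held 29 CpG dinucleotides and 2 GC boxes, and more CpGs than 93.2% of 32851 RefSeq promoters of the same length. A further annotated start of Tgfbr1 had 3 CpGs before it. The Bmpr2 promoter held 22 CpGs and 1 GC box (more CpGs than 85.2% of promoters), and that of Tgfbr2 held 12 CpGs and no GC box (more than 66.5%). Among the receptor genes that did not pass the test, the window held 36 for Bmpr1a (with 4 GC boxes), 42 for Acvr1b, 46 for Acvr1, 49 for Acvr2a and 24 for Acvr2b, and between 1 and 5 for the 3 annotated starts of Bmpr1b. A GC box on either strand was present in 32.7% of all promoters. TATAAA on either strand, present in 12.4% of all promoters, was found before 1 start of Bmpr1b and in none of the other windows of these genes. No measurement of chromatin or binding at these promoters was analysed here.

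The arrays were Affymetrix Mouse Gene ST 1.0, and their values are RMA expression on the log2 scale, where a difference of 1 is a change of 2-fold. Array medians ranged from 4.37 to 4.45, and pairs of arrays correlated at 0.991 to 0.993 within groups and 0.985 to 0.987 between them. Bmi1 itself read 7.70, 8.40 and 8.31 with the empty vector and 9.18, 8.36 and 8.42 with Bmi1, and its difference of 0.52 failed the test (adjusted p = 0.38), so its probe set does not check the labels. Cdkn2a (log2 difference -1.08, adjusted p = 0.0012 from limma), a BMI-1 target known before the study, was lower on the arrays titled Bmi1 overexpression. Epha7 was lower there too (-3.82, adjusted p = 1.1e-04). The study picked Epha7 among genes that fell on these arrays and followed it up in other experiments. By itself, the fall of Epha7 here therefore does not check the labels. Of the neural stem and progenitor markers, 11 of 12 had a probe set and 3 of them rose (Sox9, Prom1 and Hes5). Over all genes with 1 probe set each, 2.98% rose. Gfap, an astrocyte marker also made by stem cells of the ventricle wall, read 3.39 ± 0.05 and 3.49 ± 0.04 (SD, n = 3), below the median probe set at 4.41. In bulk RNA, fewer cells of a type and less RNA per cell cannot be told apart. Throughout, a gene is said to have risen or fallen where limma gave an adjusted p under 0.05 (Benjamini-Hochberg, over every probe set of the array).

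Both kinase receptors for TGF-beta fell with Bmi1, together with the BMP type II receptor. Tgfbr1 went to 25.9% of its empty vector level, Tgfbr2 to 56.6% and Bmpr2 to 75.6%. No receptor gene rose. The activin receptors, the BMP type I receptors and betaglycan did not pass the test. In all, 3 of 10 receptor genes fell. The share that fell was 3.46% of all probe sets, 4.37% of genes with 1 probe set each, and 7.46% of such genes with a mean value of at least 5. The set was chosen with earlier results of these data known, so setting it beside these shares is not a test. Over the whole array 1231 probe sets fell and 794 (2.23%) rose, and centring each array on its median gave 1467 and 593. The median difference of the 10 receptor genes was -0.0024, against 0.02 for all probe sets.

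**Figure D1:**
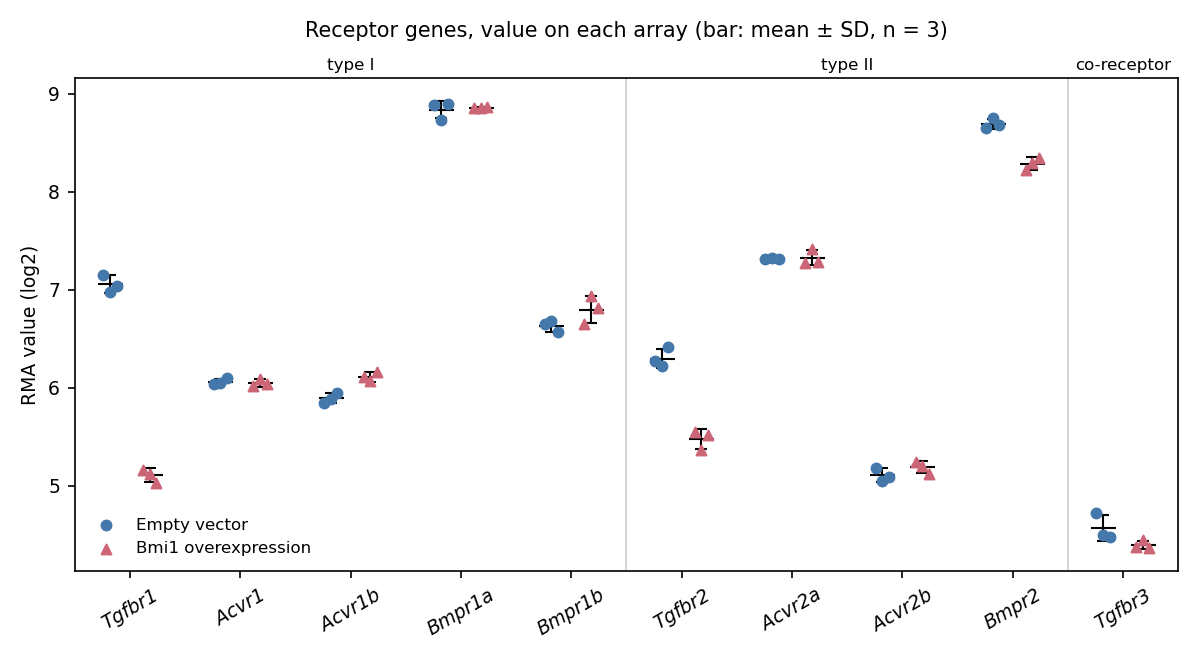
RMA value on the log2 scale (y axis) of the 10 receptor genes (x axis, by receptor type) on each array, empty vector as circles and Bmi1 overexpression as triangles, with the mean and SD (n = 3) in black. Tgfbr1, Tgfbr2 and Bmpr2 show no overlap between circles and triangles, with the widest gap for Tgfbr1 (means of 7.06 against 5.11). Tgfbr3 and Acvr1b do not overlap either, by narrower margins. Heights of different genes are not comparable, since each probe set has its own response.

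Among the 5 type I receptors of the set, which carry the kinase that acts on Smads, only Tgfbr1 fell. The type I receptors Acvrl1 and Acvr1c are outside the set and are given below with the further receptors. Tgfbr1, the type I receptor of TGF-beta (probe set 10504817), read 7.15, 6.98 and 7.04 on the empty vector arrays and 5.16, 5.12 and 5.03 on the Bmi1 arrays. The groups were far apart and the arrays of a group close together. The means of 7.06 ± 0.09 and 5.11 ± 0.07 (SD, n = 3 each) differed by -1.95 on the log2 scale, or 3.86-fold (standard error 0.08, 95% confidence interval -2.14 to -1.76, adjusted p = 3.5e-04 from limma). Only 0.931% of all probe sets fell by at least 1 on the log2 scale. Tgfbr1 was also the only receptor gene called by the methods' t-test with a p under 0.001 and a log2 difference of at least 1.

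Acvr1b, the type I receptor of activin, was slightly higher on every Bmi1 array. It read 5.85, 5.89 and 5.95 with the empty vector and 6.11, 6.07 and 6.16 with Bmi1, so that the groups did not overlap. Its log2 difference of 0.21 (95% confidence interval 0.05 to 0.37) did not pass (adjusted p = 0.14 from limma). When dim probe sets were left out, with a mean under 5 or under 6, the same difference did pass (adjusted p = 0.039 and 0.027), since fewer probe sets were tested and the shared variance estimate changed.

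The BMP type I receptors gave values that overlapped between the groups. Bmpr1b read 6.65, 6.68 and 6.57 with the empty vector and 6.65, 6.94 and 6.82 with Bmi1, a log2 difference of 0.17 (95% confidence interval -0.05 to 0.39, adjusted p = 0.37). Bmpr1a read 8.84 ± 0.09 and 8.86 ± 0.01 (SD, n = 3 each), with a difference of 0.02 (interval -0.16 to 0.20, adjusted p = 0.92). Acvr1, which also serves BMPs, read 6.06 ± 0.03 and 6.05 ± 0.04 (SD, n = 3 each), with a difference of -0.01 (interval -0.16 to 0.14, adjusted p = 0.95). For Bmpr1a and Acvr1, a change as large as that of Bmpr2 would lie outside the interval.

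Of the 4 type II receptors in the set, which bind ligand and activate the type I partner, Tgfbr2 and Bmpr2 fell. Tgfbr2, the type II receptor of TGF-beta (probe set 10597518), read 6.27, 6.22 and 6.42 with the empty vector and 5.55, 5.37 and 5.52 with Bmi1. The groups were clearly separated. The means of 6.30 ± 0.10 and 5.48 ± 0.10 (SD, n = 3 each) differed by -0.82 on the log2 scale, or 1.77-fold (standard error 0.09, 95% confidence interval -1.03 to -0.61, adjusted p = 0.0049 from limma). As for each of these genes, a single probe set does not separate transcript variants.

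Bmpr2, the type II receptor dedicated to BMPs (probe set 10346651), read 8.65, 8.75 and 8.68 with the empty vector and 8.22, 8.30 and 8.35 with Bmi1. The groups did not overlap, and the fall was the smallest of the 3. The means of 8.69 ± 0.05 and 8.29 ± 0.07 (SD, n = 3 each) differed by -0.40 on the log2 scale, or 1.32-fold (standard error 0.07, 95% confidence interval -0.58 to -0.23, adjusted p = 0.027 from limma). The call of Bmpr2 was lost when any 1 of the 6 arrays was left out (adjusted p = 0.056 to 0.10), although its difference stayed between -0.43 and -0.37.

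The activin type II receptors overlapped between the groups. Acvr2a read 7.32 ± 0.01 in controls and 7.33 ± 0.08 in Bmi1 cells (SD, n = 3 each), differing by 0.01 (95% confidence interval -0.16 to 0.17, adjusted p = 0.98). Acvr2b read 5.11 ± 0.07 and 5.19 ± 0.06 (SD, n = 3 each), a difference of 0.08 (interval -0.10 to 0.26, adjusted p = 0.62).

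Betaglycan, the accessory receptor Tgfbr3, read 4.72, 4.50 and 4.48 with the empty vector and 4.38, 4.45 and 4.37 with Bmi1. The groups did not overlap, but by a margin smaller than the spread within the control group. The log2 difference of -0.16 (95% confidence interval -0.38 to 0.05) did not pass (adjusted p = 0.37 from limma), and the values lay close to the median probe set.

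**Figure D2:**
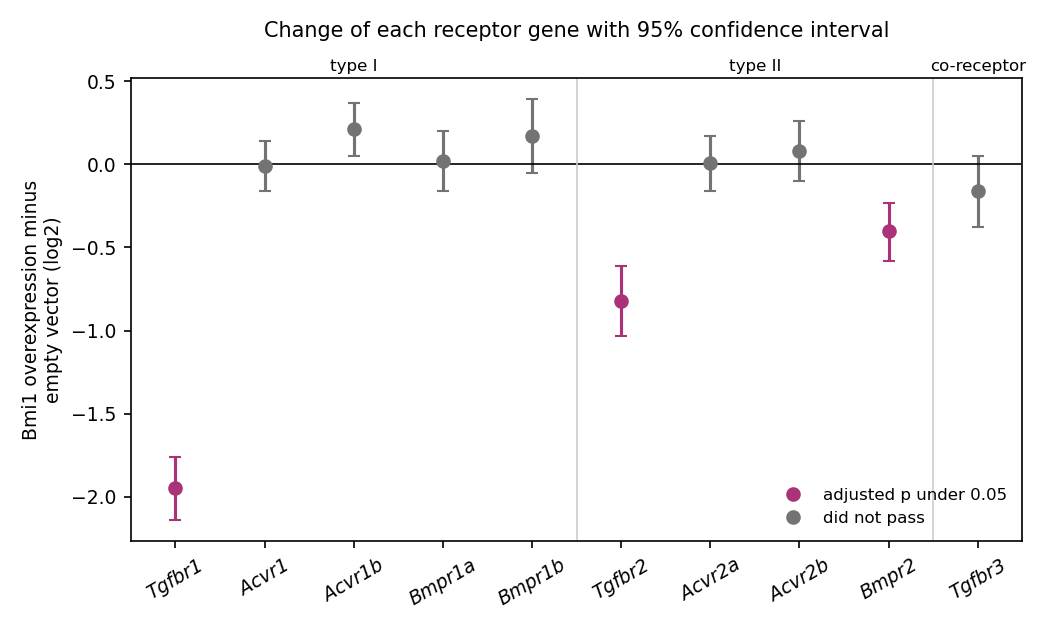
Log2 difference, Bmi1 minus control (y axis), for each receptor gene (x axis, by receptor type), with 95% confidence intervals from limma and 3 arrays per group. The intervals of Tgfbr1, Tgfbr2 and Bmpr2 lie wholly below 0, and the 7 receptor genes that did not pass lie between -0.16 and 0.21.

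The log2 change of Tgfbr1 minus that of Tgfbr2 was -1.13, that of Tgfbr1 minus that of Bmpr2 was -1.55, and that of Tgfbr2 minus that of Bmpr2 was -0.42. For each of these 3 pairs, the difference between both genes of a pair, taken on each array, did not overlap between the groups (p = 0.1 for each by a two-sided exact permutation test, the lowest p that this test can give with 3 arrays per group). RMA compresses differences of dim probe sets, so the true ratio of these changes is uncertain. Of the 10 receptor genes, 5 had groups that did not overlap, 4 of them lower and 1 higher with Bmi1, where this held for 26.6% of all probe sets (12.9% lower and 13.8% higher), for 31.3% of genes with 1 probe set each, and for 46.1% of such genes with a mean of at least 5.

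The falls of Tgfbr1 and Tgfbr2 held with each array left out (adjusted p = 0.0021 to 0.0043 and 0.021 to 0.024). Judged by adjusted p alone, Tgfbr1 passed under all 18 alternatives and Tgfbr2 under 16 of 17, the exception being the unequal-variance form of the methods' t-test after Benjamini-Hochberg adjustment (adjusted p = 0.057). Bmpr2 passed under 10 of 18. Where a log2 difference of at least 1 was also required, neither Tgfbr2 nor Bmpr2 passed.

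**Figure D3:**
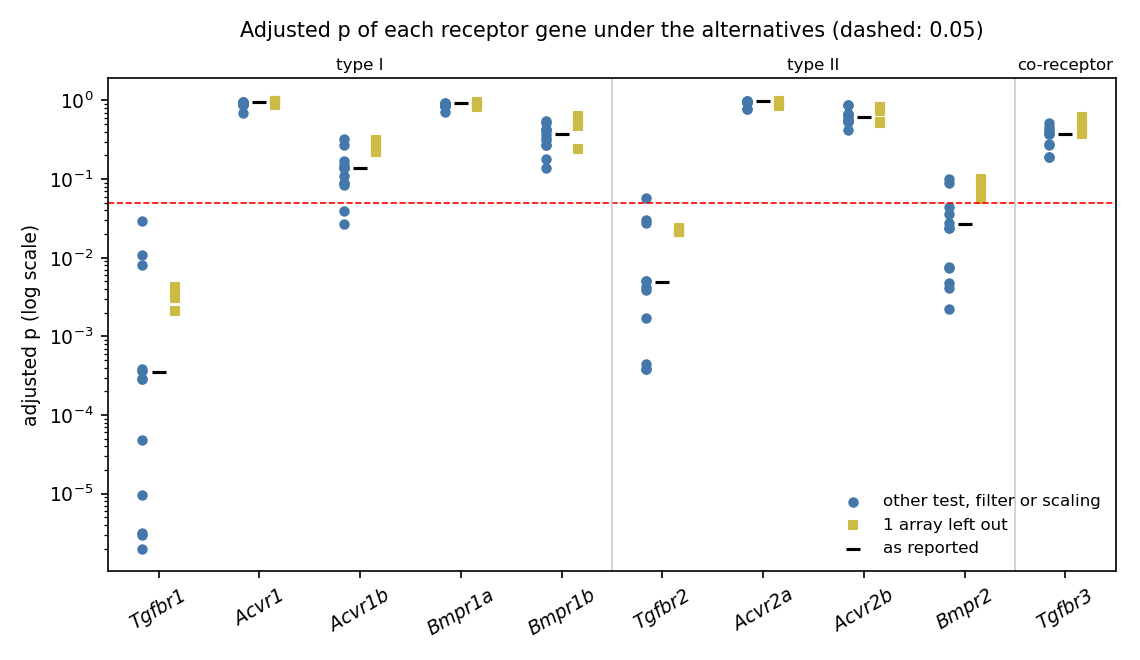
Adjusted p (y axis, log scale) of each receptor gene (x axis, by receptor type) as reported (black bar), under other tests, filters and scalings (circles) and with 1 array left out (squares). The dashed line marks 0.05. All points of Tgfbr1 lie under the line, those of Bmpr2 lie on both sides, and its 6 squares lie above it, from 0.056 to 0.10.

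The genes whose profile over the 6 arrays lay nearest to each receptor gene that fell were found by the root mean square difference of the centred values. Nearest to Tgfbr1 were the imprinted gene Peg10 (0.10 on the log2 scale), Ifi27, an interferon-inducible gene (0.11), and Ehd4, which acts in endocytic traffic (0.13). Their log2 differences were -1.86, -1.83 and -1.84. Nearest to Tgfbr2 were Plekhg5 (0.044), Fam13a (0.050) and Bmper, a secreted BMP-binding protein (0.052), with log2 differences of -0.88, -0.82 and -0.78. Nearest to Bmpr2 were Bin1, which shapes membranes (0.027), the AMPA receptor subunit gene Gria2 (0.028) and Slc25a11, a mitochondrial carrier (0.029), with log2 differences of -0.39, -0.39 and -0.41. All 9 fell. With 2 groups of 3 arrays, this measure mainly ranks genes by how close their difference between the groups is.

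Of the neural markers, Aqp4 rose of 7 astrocyte markers, and Pdgfra rose of 9 oligodendrocyte lineage markers. Dcx rose and Map2 fell of 7 neuron markers, and none of 5 ependymal markers passed. Over all genes with 1 probe set each, 4.37% fell and 2.98% rose. Other cell types known to express TGF-beta receptors were also checked by their markers. All 8 microglia and macrophage markers lay below the median probe set, and none of them passed the test. Their levels, summed on the linear scale, ranged from 85.0 to 92.8 with the empty vector and from 88.9 to 99.0 with Bmi1. None of 7 endothelial markers passed either, with sums of 113 to 118 and 123 to 126. Of 12 pericyte and fibroblast markers, Twist1 and Pcolce fell (log2 differences -2.40 and -1.98), and the summed level went from a range of 481 to 579 to a range of 266 to 291. The other 10, among them Pdgfrb (3.52 and 3.57), Rgs5 (2.46 and 2.37) and Lum (1.98 and 1.97), had differences between -0.09 and 0.20 that did not pass, and their sum was 177 to 187 with the empty vector and 190 to 206 with Bmi1. The part of Twist1, Pcolce or any cells expressing them in the falls of Tgfbr1 and Tgfbr2 was not tested.

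The rest of the pathway was described from lists of 133 further genes, of which 126 had a probe set of their own. Of these, 12 fell (9.52%), 10 rose (7.94%) and 104 did not pass, where 4.37% of all genes fell and 2.98% rose. Of genes with a mean of at least 5, 7.46% fell. The share of such genes that rose is not given here, so the 7.94% is set only beside the share over all genes, dim ones included. Of the 126, 40 had a mean below the median probe set. Their median difference was 0.04, against 0.01 for all genes. Each list with more than 1 called member, other than the further receptors and co-receptors, moved in both directions.

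**Figure D4:**
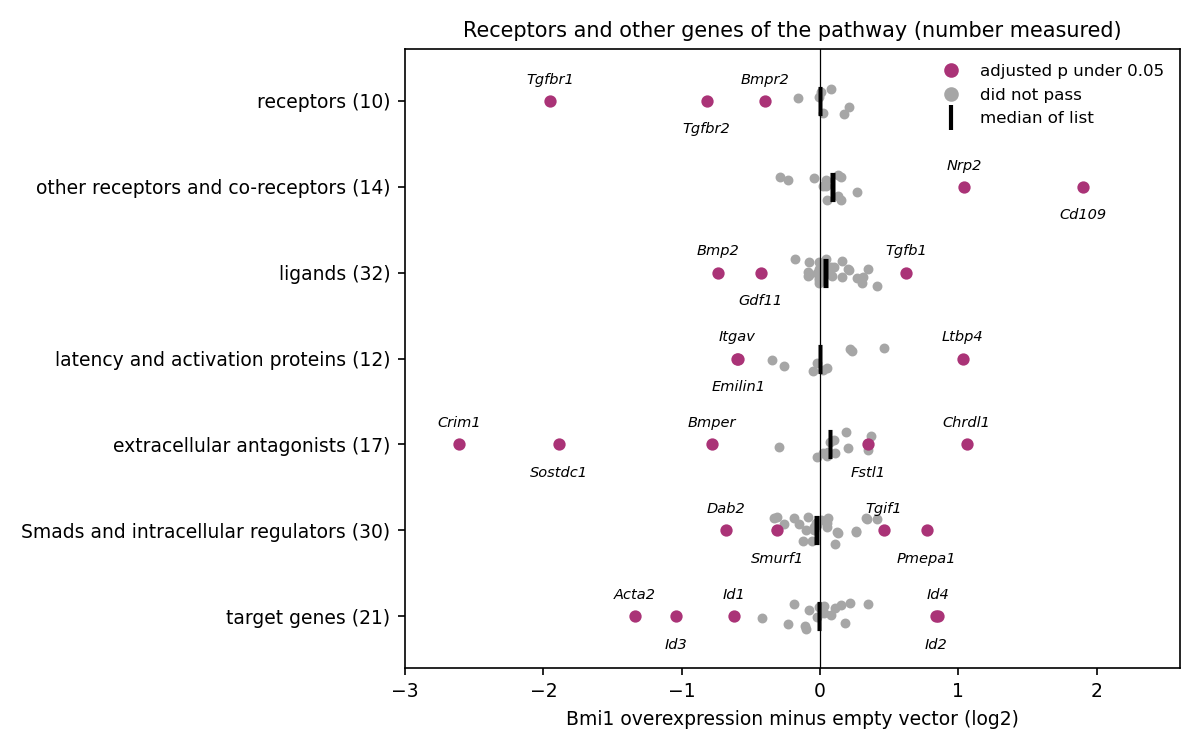
Log2 difference, Bmi1 minus control (x axis), for each measured gene of the receptor set and of 6 further lists of the pathway (y axis, number measured in parentheses). Coloured points are genes with an adjusted p under 0.05, grey points did not pass, and black bars are list medians, which all lie between -0.02 and 0.09. Tgfbr1 (-1.95), Sostdc1 (-1.89) and Crim1 (-2.61) are the lowest points and Cd109 (1.90) the highest.

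Of 32 ligand genes, 1 rose, 2 fell and 29 did not pass (median 0.04). Tgfb1, a ligand of the complex whose receptors fell, rose by 0.62 (adjusted p = 0.034 from limma), its means being 5.00 ± 0.22 and 5.62 ± 0.03 (SD, n = 3 each). Bmp2, a BMP ligand, and Gdf11, which binds the activin type II receptors, fell by 0.74 and 0.43 (adjusted p = 0.013 and 0.042). The call of Tgfb1 was lost in 5 of 6 fits with 1 array left out (adjusted p up to 0.12), that of Gdf11 in all 6 (up to 0.14) and that of Bmp2 in 3 (up to 0.054). Of 12 genes that keep TGF-beta latent or release it, Ltbp4, a latent TGF-beta binding protein, rose by 1.03. The integrin gene Itgav and Emilin1, whose product restrains processing of the TGF-beta precursor, fell by 0.60 and 0.59 (adjusted p = 0.011 and 0.019). The calls of Itgav and Emilin1 were lost in 2 and 4 of 6 fits with 1 array left out (adjusted p up to 0.054 and 0.076).

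Of 14 further receptors and co-receptors, 2 rose, none fell and 12 did not pass (median 0.09). Among those that did not pass were the type I receptors Acvrl1 and Acvr1c (both 0.04, adjusted p = 0.91 and 0.86 from limma). The type II receptor Amhr2 (0.13, adjusted p = 0.68) did not pass either. Cd109, a membrane-anchored co-receptor that inhibits TGF-beta signalling, rose by 1.90 (adjusted p = 0.0012 from limma), its means being 6.05 ± 0.18 and 7.95 ± 0.20 (SD, n = 3 each). Nrp2, a semaphorin receptor that also binds TGF-beta, rose by 1.04 (adjusted p = 0.0043). Bambi, a pseudoreceptor without a kinase, had a log2 difference of 0.15 (adjusted p = 0.33) and Eng, the endothelial co-receptor endoglin, of -0.04 (adjusted p = 0.89). Of 17 secreted or membrane-bound antagonists, 3 fell, 2 rose and 12 did not pass (median 0.07). Crim1, Sostdc1 and Bmper had log2 differences of -2.61, -1.89 and -0.78, whereas Chrdl1 and Fstl1 had log2 differences of 1.06 and 0.35. Tgfbr1, Crim1, Sostdc1, Chrdl1, Cd109 and Nrp2 are in the study's own list of differential genes from these arrays, so their changes here are not independent evidence.

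The 8 Smad genes downstream of the receptors did not pass, with log2 differences between -0.06 and 0.41 and the smallest adjusted p at 0.064 (Smad3). Among 30 Smads and intracellular regulators, 2 fell, 2 rose and 26 did not pass (median -0.02). Pmepa1, which is induced by TGF-beta and binds Smads, rose by 0.77 and the Smad corepressor gene Tgif1 by 0.46 (adjusted p = 0.015 and 0.049). The ubiquitin ligase gene Smurf1 and the adaptor gene Dab2 fell by 0.31 and 0.68 (adjusted p = 0.049 and 0.039). The calls of Smurf1, Tgif1 and Dab2 were lost with any 1 array left out (adjusted p up to 0.16, 0.16 and 0.13), and that of Pmepa1 in 2 of 6 such fits (up to 0.060). The mean of both probe sets of Dab2 gave a smaller difference of -0.40.

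Of 21 targets of the pathway, 3 fell, 2 rose and 16 did not pass (median -0.01). The Id genes, direct BMP targets that hold back differentiation factors, divided by member: Id1 and Id3 had log2 differences of -0.62 and -1.04, and Id2 and Id4 of 0.84 and 0.85 (adjusted p = 0.0080, 0.0085, 0.037 and 0.012). The call of Id4 was lost in 1 of 6 fits with 1 array left out, that without Bmi1 replicate 2 (adjusted p = 0.051 from limma). Without empty vector replicate 2 it passed only just (adjusted p of 0.05 after rounding). For Id2 and Fstl1, the results under the alternatives were counted with the pathway genes and are not given gene by gene. Acta2, a smooth muscle actin gene known to be induced by TGF-beta, read 9.02 ± 0.31 in controls and 7.68 ± 0.36 in Bmi1 cells (SD, n = 3 each). The difference was -1.34 (adjusted p = 0.023 from limma), and the call was lost in 4 of 6 fits with 1 array left out (up to 0.089). Acta2 was in none of the marker lists, and whether cells expressing it became fewer was not tested. Other TGF-beta targets did not pass, among them Ccn2 (-0.19, adjusted p = 0.36), Tgfbi (0.22, adjusted p = 0.32) and Smad7 (0.26, adjusted p = 0.47), which is listed with the Smads.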

How the data were processed

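RNA of 6 neurosphere samples was hybridised to 1 Affymetrix Mouse Gene ST 1.0 array each. The values deposited by the authors are log2 expression per probe set, computed by RMA (background correction, quantile normalization, probe summary) in Affymetrix Expression Console, per the submitters' processing notes. The version is not given in the sources used here, and the table holds no detection calls. RMA compresses the changes of dim probe sets, and precision is limited by having few arrays.

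Probe sets took their names from the platform annotation, which gives 1 gene for 21789 of 35557, several for 1621 (not named) and none for 12147. Per gene the probe set with the highest mean over 6 arrays was used. Differences between the groups, by title, were tested with lmFit and eBayes of limma 3.58.1 (R 4.3.3, two-sided, no filter) and adjusted by Benjamini-Hochberg over 35557 probe sets, and the fit was tested on simulated data. The methods' t-test was an alternative. The members and gene lists were chosen with earlier results of these data known. Named were all receptor genes, up to 4 called genes per list with the smallest adjusted p, 3 label checks, and the 3 nearest profiles of each called receptor gene. Fstl1, Id2, Bambi, Eng, Acvrl1, Acvr1c, Amhr2, the Smads and targets that did not pass, and the markers were named after their values were seen. Alternatives were filters at a mean of 5 or 6, median or quantile scaling, trended or robust eBayes, array weights, the replicate block, the unequal-variance test, 1 probe set per gene, a fold threshold and each array left out. Exact permutation tests used scipy 1.17.1, and figures matplotlib 3.10.9.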

Additional observations from a re-analysis of the deposited data

How the results depend on the processing

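The count of receptor genes that fell was 3 as reported and 2 with any 1 array left out or with the replicate block. It was 1 (Tgfbr1) by the methods' t-test at its own thresholds, by Welch's form with Benjamini-Hochberg adjustment and with a log2 difference of at least 1 required. No receptor gene rose except with probe sets of a mean of at least 5 or at least 6, where 1 did (Acvr1b). Tgfbr3 has a mean under 5, and Tgfbr2 and Acvr2b means under 6, so these filters leave them out. Of the other pathway genes, 12 fell and 10 rose as reported. These counts were 2 and 3 by the methods' t-test at its thresholds, 6 and 5 by it with Benjamini-Hochberg adjustment, 1 and 2 by Welch's form, 7 and 6 with the replicate block, 4 and 4 with a log2 difference of at least 1, and 6 to 7 and 5 to 6 with 1 array left out. With the adjustment over 1 probe set per gene, or with the probe sets of each gene averaged, 17 rose. Of all probe sets, 1231 fell and 794 rose as reported, 200 and 100 by the methods' t-test at its thresholds, 885 and 492 with Benjamini-Hochberg adjustment, and 139 and 71 by Welch's form. The counts were 1880 and 1544 with a mean of at least 5, 1847 and 1346 with a mean of at least 6, 1826 and 1364 with an eBayes trend, 544 and 306 with the replicate block, 331 and 155 with a log2 difference of at least 1, and 642 to 820 and 332 to 455 with 1 array left out. The direction changed only for receptor genes near 0: Acvr2a (-0.05) and Bmpr1a (-0.03) after median centring, Bmpr1a (-0.04) without empty vector replicate 2, Acvr1 (0.01) without empty vector replicate 3 and (0.00) without Bmi1 replicate 1, and Acvr2a (-0.04) without Bmi1 replicate 2. With 1 array left out, Bmpr1a ranged from -0.04 to 0.05, Acvr2a from -0.04 to 0.03 and Acvr1 from -0.03 to 0.01. Except where a smaller number of probe sets or arrays shows it, the cause was not tested.

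Arrays with the same replicate number did not deviate together from their group means (correlations of 3.4e-05, -0.032 and -0.018), so the numbers were not taken as pairs. With the replicate block, Bmpr2 no longer passed (adjusted p = 0.10), and Tgfbr1 and Tgfbr2 did (0.011 and 0.028).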
